A study of Mus musculus with 9 samples.

Results

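The miR-135 family is represented in the mouse by the paralogs mmu-miR-135a and mmu-miR-135b, and both were followed here in small extracellular vesicles (smEVs) shed by kidney medullary (KM) cells. These are the 2 members, out of 1164 miRNAs in the deposited table. The pair was chosen by name, and it was selected on the known fact that miR-135b is higher in both mutants than in WT. Every value of the pair against WT below is therefore a description with no test of its own. Other miRNAs were tested against WT. The lists of miRNAs used below were also chosen with earlier results of these data known, so calls of their members are descriptions. The contrast between the mutants was not used for that choice and was tested.

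The cells were immortalised kidney medullary lines of 3 genotypes, Bbs4-/-, Bbs6-/- and wild-type (WT), all kept for 24 h without serum before the vesicles were collected. Bbs4 is a subunit of the BBSome, which moves cargo in and out of cilia, and Bbs6 resembles a chaperonin and helps to put the BBSome together. Each genotype was 1 cell line with 3 smEV preparations, so a difference between genotypes and a difference between lines cannot be told apart. The preparations are named by the numbers of the deposited columns. Bbs4-/- has replicates 1, 2 and 3, Bbs6-/- has 2, 3 and 4, and WT has 1, 3 and 4.

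MicroRNAs are short RNAs that pair with messenger RNAs, mainly through bases 2 to 8 of the mature strand (the seed), and lower their translation and stability. The miR-135 family is best known for acting on the mRNA of Apc, the scaffold of the complex that marks β-catenin for degradation, and is for that reason often discussed with Wnt signalling. miRNAs with the same seed are expected to share many targets, so the paralogs are treated as a family even where their genes lie on different chromosomes.

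Of the family's mature strands, those with a sequence in RefSeq (GRCm38.p6) are shown first because they tell which rows of the table can share reads. The seed is in capitals.

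mmu-miR-135a-5p: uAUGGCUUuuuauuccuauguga

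mmu-miR-135b-3p: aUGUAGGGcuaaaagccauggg

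mmu-miR-135a-1-3p: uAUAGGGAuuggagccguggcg

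mmu-miR-135a-2-3p: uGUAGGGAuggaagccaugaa

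mmu-miR-135b-5p is the remaining strand. The 3p strands have 3 different seeds, and none of them equals the seed of mmu-miR-135a-5p. The hairpin of Mir135b is shown next, with the stretch of 23 bases that is most like mmu-miR-135a-5p in capitals.

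Mir135b hairpin: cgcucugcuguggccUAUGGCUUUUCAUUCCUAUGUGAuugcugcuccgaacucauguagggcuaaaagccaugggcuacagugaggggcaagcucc

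That stretch runs from base 16 to base 38 of the 97 bases and differs from mmu-miR-135a-5p at 1 position, U11C, where positions are counted from the 5′ end of mmu-miR-135a-5p. The seed letters AUGGCUU were identical in both. They occur in 8 of 1005 mouse hairpins in RefSeq, a share of 0.796% over the given strand of each hairpin.

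The gene of miR-135b lies at chr1:132198088-132198184 on the plus strand of GRCm38, in an intron of Lemd1 on the same strand (GENCODE vM21). Both Lemd1 transcripts that span it leave it intronic, as does 1 transcript of the overlapping coding gene AC124108.1. No other annotated miRNA gene lies closer than 699286 bp. miR-135a has 2 genes. Mir135a-1 is at chr9:106154124-106154213 on the plus strand, in an intron of the antisense RNA gene D030055H07Rik and over an exon of Glyctk on the opposite strand. Mir135a-2 is at chr10:92072086-92072185 on the minus strand, in an intron of the long non-coding RNA gene Rmst. RefSeq gives the numbers 1 and 2 only to the 3p strands of miR-135a, while its 5p strand is the same from both genes.

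The total miRNA count was 176935 to 457163 in the Bbs4-/- libraries, 192654 to 423784 in Bbs6-/- and 64118 to 130905 in WT, so WT was the shallowest line throughout. Levels are given in CPM, the count of a miRNA relative to its TMM-scaled library size, and the 3 counts used as the detection limit of a library came to between 6.98 and 36.5 CPM. Pairs of libraries of the same line differed by more than sampling noise (chi-square divided by its degrees of freedom, 12.4 to 110). Replicate 2 of Bbs6-/- stood apart from its line, at 86.2 and 110 from replicates 3 and 4, which were at 12.4 from each other. The level of miR-135b in Bbs6-/- and its contrasts are given with and without it. Of a marker list of 6 epithelial miRNAs, all had a count in both mutants and 5 had one in WT, where miR-141 had none.

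miR-135b was present in all 9 libraries, low in WT, roughly an order of magnitude higher in Bbs4-/- and highest on average in Bbs6-/-. Its raw count was 2, 12 and 24 in WT replicates 1, 3 and 4. In Bbs4-/- replicates 1, 2 and 3 it was 110, 220 and 439, and in Bbs6-/- replicates 2, 3 and 4 it was 133, 569 and 802. Every mutant library therefore held more miR-135b reads than every WT library.

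After scaling for depth, WT was at 24.3, 107 and 155 CPM, a mean of 95.4 ± 66.2 (SD, n = 3). Bbs4-/- was at 695, 985 and 1022 CPM, a mean of 901 ± 179 (SD, n = 3). Bbs6-/- was at 730, 1945 and 2296 CPM, a mean of 1657 ± 822 (SD, n = 3), or 2120 ± 248 (SD, n = 2) without replicate 2. The WT libraries did not overlap with either mutant, and the lowest Bbs4-/- library stood 4.48-fold above the highest WT library. For Bbs6-/- this gap was 4.70-fold. Replicate 1 of WT, with 2 counts, was under its own limit of 36.5 CPM and cannot be told from 0. More vesicles with miR-135b and more copies of it per vesicle cannot be told apart in bulk pellets.

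**Figure D1:**
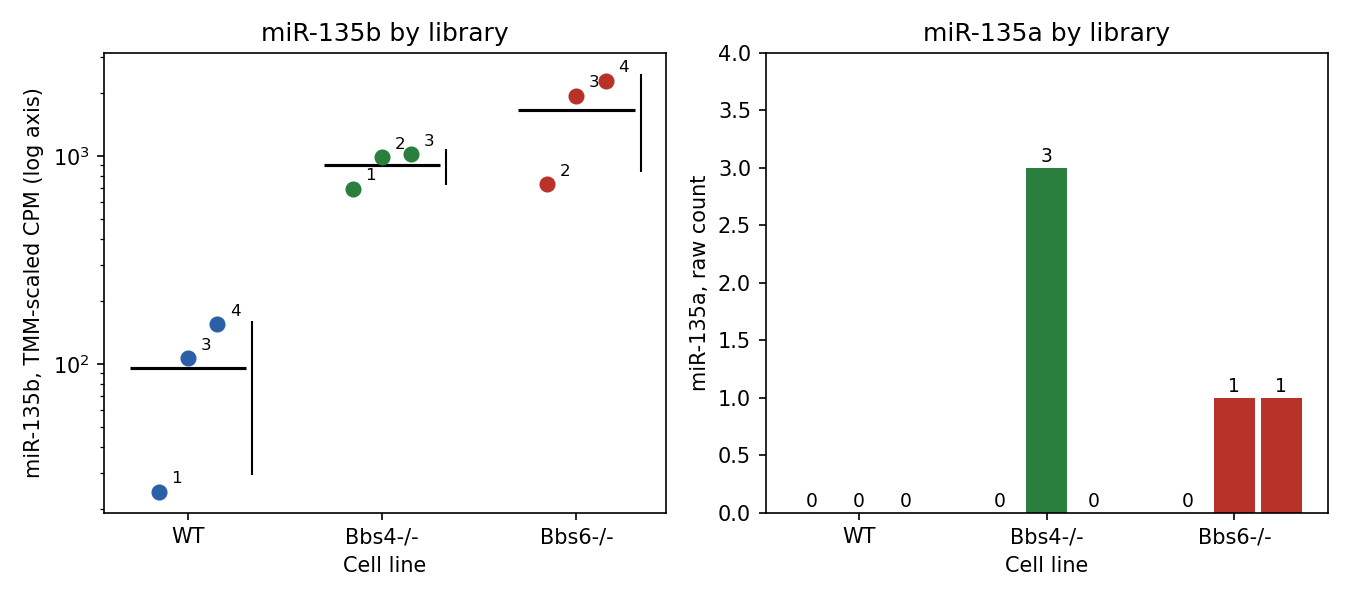
miR-135b in TMM-scaled CPM on a log axis (left) and the raw count of miR-135a (right) in each of the 9 libraries, grouped by cell line. On the left each point is a library with its replicate number, the horizontal line is the mean of 3 libraries and the vertical line its SD. The WT libraries lie between 24.3 and 155 CPM of miR-135b and all mutant libraries at 695 CPM or above, while no library has more than 3 counts of miR-135a.

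By share of all miRNA counts, miR-135b made up 0.00312% to 0.0183% in WT, 0.0622% to 0.103% in Bbs4-/- and 0.0690% to 0.189% in Bbs6-/-. Ordered by count, miR-135b ranked between 53 and 55 in replicates 3 and 4 of Bbs6-/-, 69 to 80 in the other mutant libraries, and 119 to 202 in WT.

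Against WT, the fitted log2 fold change of miR-135b was 3.03 in Bbs4-/- (standard error 0.47), an 8.19-fold higher level with a 95% interval of 4.09 to 16.4. In Bbs6-/- it was 4.10 (standard error 0.63), a 17.2-fold higher level with an interval of 6.42 to 45.9. Both comparisons use the same WT libraries. miR-135b met the criteria for a call in both, which by edgeR were a log2 fold change of 2 or more in size together with adjusted p below 0.1. These criteria called 3.90% of 308 miRNAs higher in Bbs4-/- and 2.68% of 298 higher in Bbs6-/-. Nothing is read from these calls, since they were known when the pair was picked. Among all miRNAs tested, 20.8% had every Bbs4-/- library above every WT library, and 17.4% had every Bbs6-/- library above. Without replicate 2 of Bbs6-/- the log2 fold change in Bbs6-/- was 4.43 (standard error 0.44).

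The WT libraries, lowest in miR-135b, were also the shallowest. With every library thinned to 64118 counts, the median log2 fold change of miR-135b over 20 draws was 3.17 in Bbs4-/- and 3.98 in Bbs6-/-. Thinning keeps the expected share of each miRNA, so these values cannot show whether depth had a part in the difference. That was not tested. With total counts in place of TMM the log2 fold change of miR-135b was 2.90 and 3.65, and the median of all miRNAs tested then shifted by -0.18 and -0.43.

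**Figure D2:**
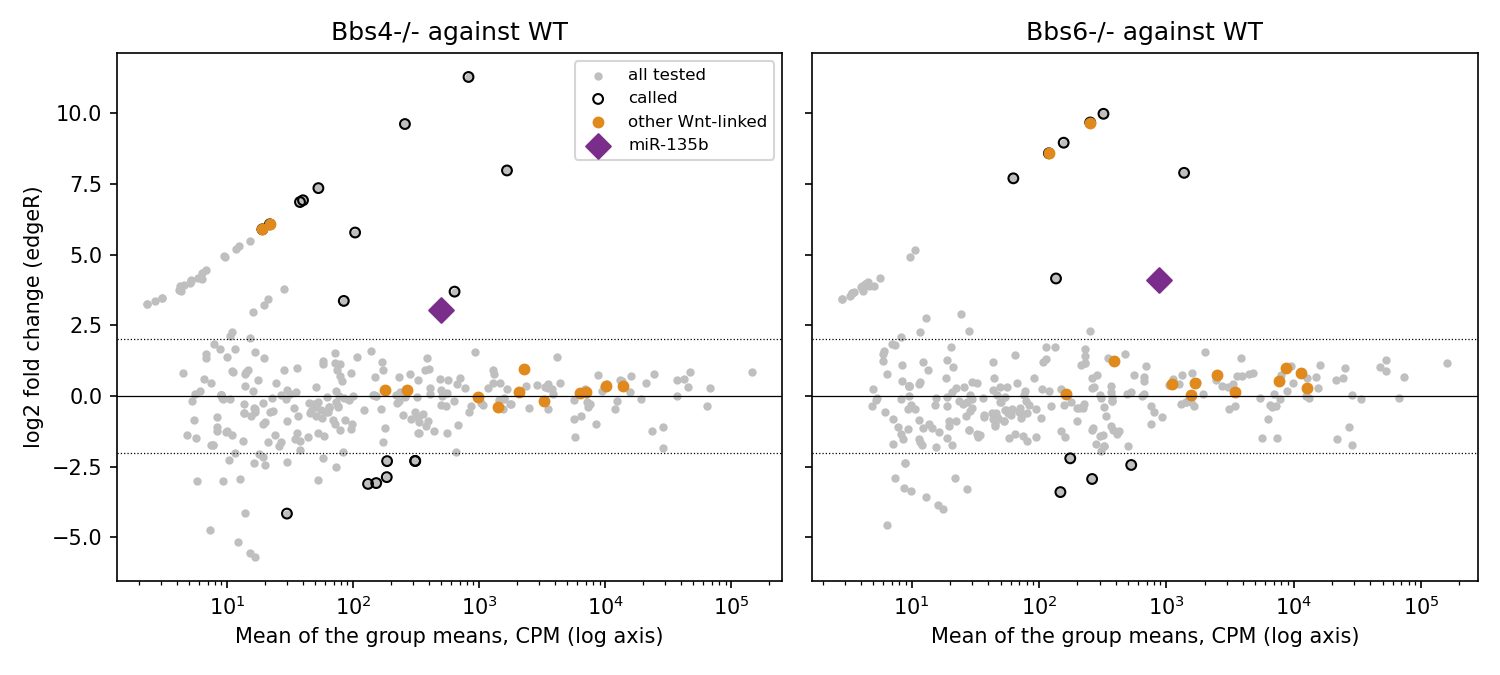
Log2 fold change against WT (edgeR) plotted against the mean of both group means in CPM on a log axis, for each miRNA tested in Bbs4-/- (left) and Bbs6-/- (right). The diamond is miR-135b, at 3.03 and 4.10, filled orange points are other Wnt-linked miRNAs, open circles mark called miRNAs, and dotted lines stand at a log2 fold change of 2 in either direction.

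Whether the mutants differ from each other in miR-135b was asked directly. In all, 2 of the 3 Bbs6-/- libraries lay above all Bbs4-/- libraries, while replicate 2 of Bbs6-/-, at 730 CPM, fell inside the Bbs4-/- range of 695 to 1022 CPM. The ratio of the means was 1.84. Across all 9 libraries, the log2 fold change of miR-135b, Bbs4-/- minus Bbs6-/-, was -0.88 (standard error 0.45), with a 95% interval of -1.84 to 0.08. The adjusted p was 0.369 (edgeR's quasi-likelihood test, unadjusted p = 0.0705), and the difference was not called. On the fold scale the interval ran from 0.279 to 1.06, so both a level in Bbs4-/- well under that of Bbs6-/- and an equal level lie inside it. In this contrast 3.88% of 309 miRNAs were called in either direction.

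Some settings moved the adjusted p across 0.1. Without replicate 2 of Bbs6-/-, the log2 fold change was -1.29 (standard error 0.35) and its adjusted p was 0.0237 (edgeR), still short of the required fold. With all libraries in and no low-count filter the log2 fold change was -1.03 and its adjusted p was 0.0258 (edgeR), also short of it. With the replicate number as a block it was -0.11. Leaving out any other library gave values from -1.15 to -0.57. The order of the mean levels was WT, then Bbs4-/-, then Bbs6-/-, and the mutants, which are neighbours in this order, did not differ beyond their spread under the reported setting.

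**Figure D3:**
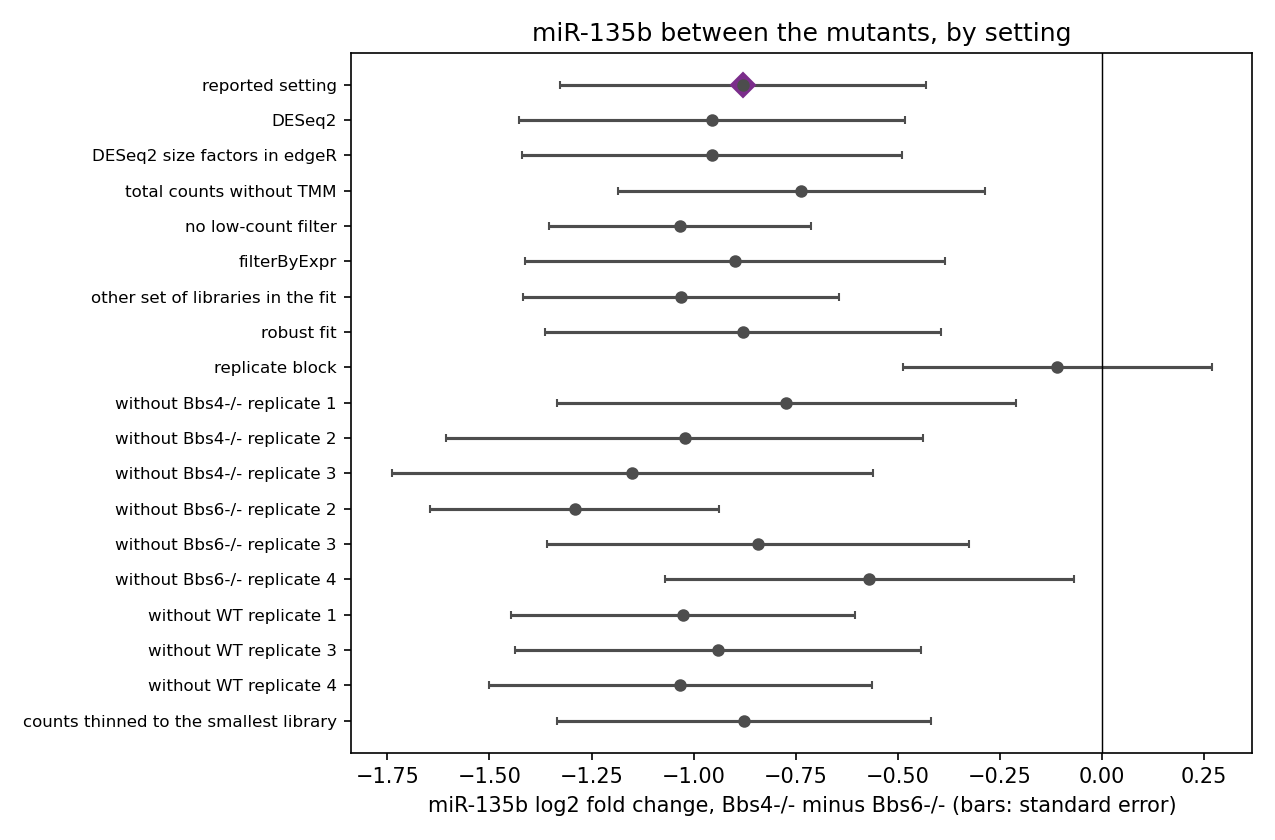
Log2 fold change of miR-135b, Bbs4-/- minus Bbs6-/-, with its standard error as a bar, under the reported setting (diamond) and 18 alternatives. All values lie below 0, from -1.29 without replicate 2 of Bbs6-/- to -0.11 with the replicate number as a block.

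The coefficient of variation of miR-135b between preparations was 19.9% in Bbs4-/-, against a median of 19.8% over 187 miRNAs with at least 30 counts in that line. In Bbs6-/- it was 49.6% against a median of 26.8% over 181 miRNAs, and in WT it was 69.3% against a median of 22.7% over 143 miRNAs. The larger values rested on 1 library each. Without replicate 2 the coefficient in Bbs6-/- was 11.7% (n = 2), and without replicate 1, the library with 2 counts, that in WT was 26.1% (n = 2). In Bbs4-/- it was 2.58% without replicate 1. No difference in spread between the lines was tested.

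Its paralog miR-135a was near the limit of detection everywhere. It had 3 counts in replicate 2 of Bbs4-/-, 1 count each in replicates 3 and 4 of Bbs6-/-, and 0 in the other 6 libraries, WT included. No library was above the limit of 3 counts, so no fold is given. Its totals of 3 and 2 counts in the comparisons with WT fell under the minimum of 6, and its total of 5 fell under the minimum of 9 for the contrast of the mutants. Of the 2 members, 1 was thus tested in each comparison. The rows miR-135a-1 and miR-135a-2, which carry the names of 3p strands, held 0 counts in all libraries.

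At the depth of WT, miR-135a at the level of the mutants would not have been detectable. The 5 counts among 1785424 mutant counts are a rate of 2.80 CPM, which would give 0.844 counts over the 301240 counts of WT. A count of 0 there allows up to 9.96 CPM, with 3 counts set against the summed WT total. No difference in miR-135a can be read from its missing reads in WT.

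As the paralogs were counted in the same libraries, their ratio does not depend on scaling. miR-135a made up 5 of 2316 counts of the pair, or 0.216%, with an exact binomial 95% interval of 0.0701% to 0.503% that covers counting error only. In Bbs4-/- the share was 0.389% (interval 0.0802% to 1.13%) and in Bbs6-/- 0.133% (interval 0.0161% to 0.479%), which overlap widely. In WT 0 of 38 counts allows a share of up to 9.25%. Without replicate 2 of Bbs4-/-, the library with most of the miR-135a counts, the share over the other 8 libraries was 0.0956%. Given the single differing base shown above, how many of the 5 counts were reads of the Mir135b hairpin was not tested.

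The family as a whole therefore followed miR-135b. miR-135a and miR-135b made up 0.0126% of all WT counts, 0.0911% of Bbs4-/- counts and 0.161% of Bbs6-/- counts.

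The miRNAs whose profile was most like that of miR-135b were named by the Pearson correlation of log2 CPM over the 9 libraries, among 193 others with a total of at least 60 counts. They were miR-191 (0.96), miR-23b (0.93), miR-21a (0.92), miR-26a (0.91) and miR-296 (0.91). These points share libraries and line, and all 5 had a higher mean in both mutants than in WT. Once the mean of each line was taken away, the correlation was 0.83 for miR-191 and 0.80 for miR-23b, 0.63 for miR-26a, 0.51 for miR-296 and 0.17 for miR-21a. Some miRNAs outside these 5 had higher values, such as miR-96 (0.93) and miR-200a (0.90). The deviations include replicate 1 of WT, where miR-135b had 2 counts. In replicate 2 of Bbs6-/-, miR-191 was likewise lowest of its line, at 4884 CPM against 6534 and 6784 CPM.

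The size of the difference from WT was not alike. The log2 fold change of miR-191 was 0.45 in Bbs4-/- (standard error 0.21) and 0.82 in Bbs6-/- (standard error 0.22), against 3.03 and 4.10 for miR-135b. miR-23b, miR-26a and miR-21a also stayed at or below 1.18 in both mutants. Of the 5, miR-296 had the widest gap to WT. It had 0 counts in WT and a mean of 515 ± 159 CPM in Bbs4-/- and 313 ± 83.9 CPM in Bbs6-/- (SD, n = 3 each), with the mutants in the opposite order from miR-135b.

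**Figure D4:**
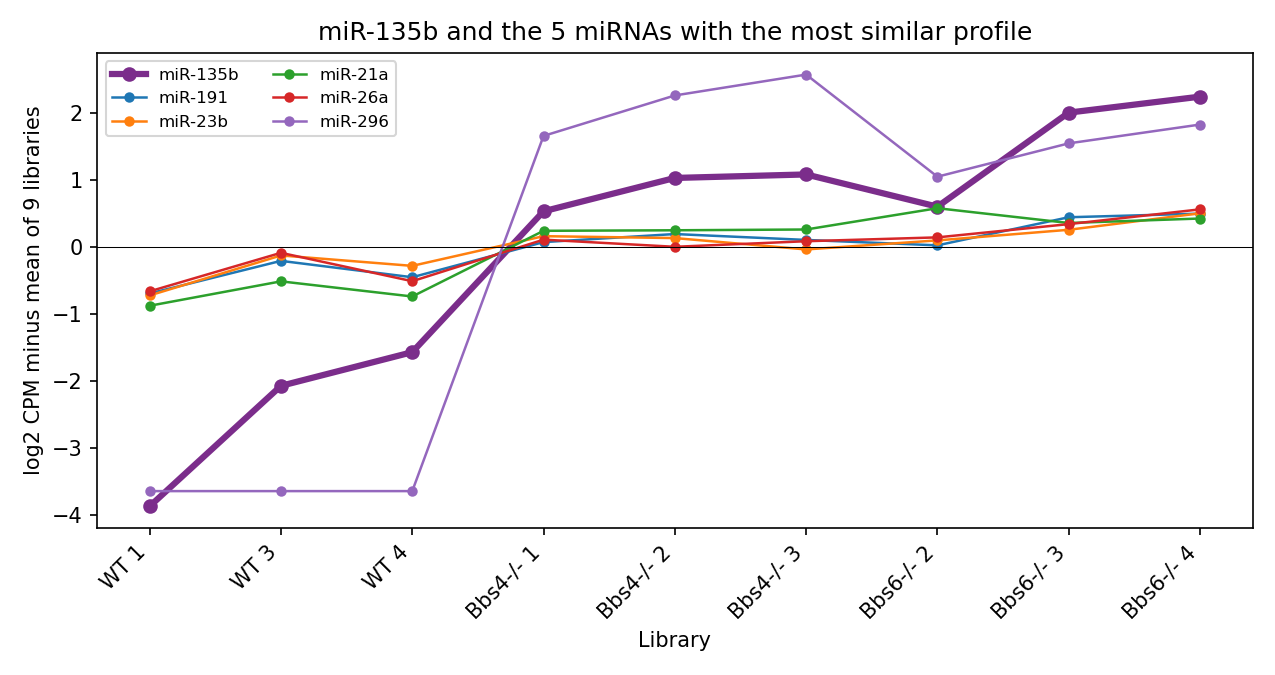
Log2 CPM minus the mean over all libraries for miR-135b (thick line) and the 5 miRNAs with the highest correlation to it, in the 9 libraries in the order WT, Bbs4-/- and Bbs6-/-. miR-135b and miR-296 lie far lower in WT than in the mutants, while miR-191, miR-23b, miR-21a and miR-26a stay closer to 0 in every library.

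Of the epithelial marker list, 2 members, miR-200c and miR-141, were called higher in each mutant by edgeR. The paper reports both as higher in both mutants, so their calls were known beforehand. Of all miRNAs tested, 3.90% were called higher in Bbs4-/- and 2.68% in Bbs6-/-. The other 3 list members tested in Bbs4-/- had log2 fold changes of 0.14 to 0.24 and were not called. The other 4 tested in Bbs6-/- had 0.47 to 1.22 and were not called. The value of 1.22 (standard error 2.11) was that of miR-205, with 7 counts in Bbs6-/- and 1 in WT, and the next highest was 0.74 for miR-200a. The summed level of the 6 epithelial miRNAs (miR-200a, miR-200b, miR-200c, miR-141, miR-429 and miR-205) was 10005 to 13305 CPM in WT, 16974 to 18926 CPM in Bbs4-/- and 16551 to 21413 CPM in Bbs6-/-, without overlap between WT and either mutant. Of single miRNAs tested, 20.8% had every Bbs4-/- library above every WT library, and 17.4% every Bbs6-/- library. miR-135b was 0.243% to 1.30% of that sum in WT, 4.10% to 5.54% in Bbs4-/- and 4.41% to 10.7% in Bbs6-/-. In replicate 2 of Bbs6-/-, where miR-135b was lowest of its line, miR-200c was at 176 CPM against 3653 and 4414 CPM in the others. miR-141 had 1 count in replicate 2 (5.49 CPM), under the limit of that library (16.5 CPM), against 195 and 177 CPM in the others. The kidney tubule miRNAs miR-192, miR-194 and miR-215 summed to 48.6 to 258 CPM in WT, 196 to 256 CPM in Bbs4-/- and 197 to 332 CPM in Bbs6-/-. Their part, and that of the epithelial list, in the result was not tested.

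Markers of other cell types were low, and so were the kidney tubule miRNAs. The median sum of the kidney tubule list was 123 CPM in WT, 206 CPM in Bbs4-/- and 324 CPM in Bbs6-/-. In the same order, the medians of the mesenchymal list were 134, 209 and 38.4 CPM, and those of the blood list 151, 98.5 and 45.8 CPM. The mesenchymal list summed to 80.1 to 162 CPM in WT, 123 to 273 CPM in Bbs4-/- and 20.04 to 71.8 CPM in Bbs6-/-, with miR-145a and miR-214 at 0 in all libraries. The blood list summed to 103 to 170 CPM in WT, 60.5 to 126 CPM in Bbs4-/- and 34.2 to 71.3 CPM in Bbs6-/-. The liver miRNA miR-122 was at 26.7 to 85.1 CPM in WT, 0 to 8.96 CPM in Bbs4-/- and 0 to 75.2 CPM in Bbs6-/-.

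To set miR-135b beside the wider pathway, 15 other miRNAs with a known link to Wnt signalling were followed, 5 that have been tied to Apc, 5 to β-catenin or Lef1 and 5 to Wnt inhibitors or Gsk3b. Of these, 13 were tested, since miR-142a and miR-214 had too few counts. In each mutant 2 list members were called higher and 0 lower. The background among all miRNAs tested was 3.90% higher and 2.27% lower in Bbs4-/-, and 2.68% and 1.34% in Bbs6-/-. The list calls hold for this list only, which leaves out miRNAs that the paper links to Wnt signalling by predicted targets. Left out are miR-203, miR-122, miR-101c, miR-181d and miR-101a, which the paper reports as lower in Bbs4-/-. Their log2 fold changes there were -4.16 to -2.30, and edgeR called them lower. Also left out are miR-200c and miR-141, reported and called higher in both mutants. With total counts in place of TMM, all calls in Bbs4-/- split into 12 higher and 11 lower in place of 12 and 7, and in Bbs6-/- into 8 and 9 in place of 8 and 4. The list median of the log2 fold changes was 0.22 in Bbs4-/- and 0.53 in Bbs6-/-, with medians of -0.02 and -0.01 over all miRNAs tested.

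Of the listed miRNAs tied to Apc, 4 could be tested. They were miR-27a, miR-27b, miR-155 and miR-106b, which had log2 fold changes of -0.40 to 0.15 in Bbs4-/- and 0.05 to 0.53 in Bbs6-/-, and 0 of them were called in either mutant. At an adjusted p under 0.1 and any fold, edgeR found 3 of the 13 listed miRNAs in Bbs4-/- and 4 in Bbs6-/-, none of them listed as tied to Apc. The same criterion, in either direction, was met by 15.3% of all miRNAs tested in Bbs4-/- and 15.1% in Bbs6-/-.

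The called list members were miR-34b and miR-34c, which act on β-catenin and Lef1 transcripts and had 0 counts in WT. The paper reports both as higher in both mutants, and the list was chosen with earlier results known. Nothing is therefore read from their calls. In Bbs4-/- they rested on 33 and 32 counts. Their mean levels were 1.38-fold and 1.59-fold the mean limit of 3 counts per WT library, which was 27.5 CPM. By library, miR-34b in replicate 1 (25.3 CPM) and miR-34c in replicate 3 (23.3 CPM) of Bbs4-/- were under that mean limit, and the others above it. In Bbs6-/-, miR-34b and miR-34c had 208 and 460 counts, with means 8.70-fold and 18.4-fold the mean limit. Both calls in Bbs4-/- were lost when replicate 1 or replicate 2 of that line was left out, and likewise for replicate 3 or replicate 4 of WT. Without replicate 3 of Bbs4-/- the list had 1 call. In Bbs6-/- the list had 2 calls whichever library was left out.

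Among the miRNAs tied to Wnt inhibitors or Gsk3b, miR-218 was higher in Bbs4-/-. Its log2 fold change was 0.96 with a standard error of 0.25, and its adjusted p by edgeR was 0.0188. In Bbs6-/-, miR-29a was higher by 1.00 (standard error 0.25) and miR-26a by 0.80 (standard error 0.20), both with an adjusted p of 0.0417 (edgeR). All 3 passed the threshold on p and missed that on the fold, and they are named after their values were seen.

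**Figure D5:**
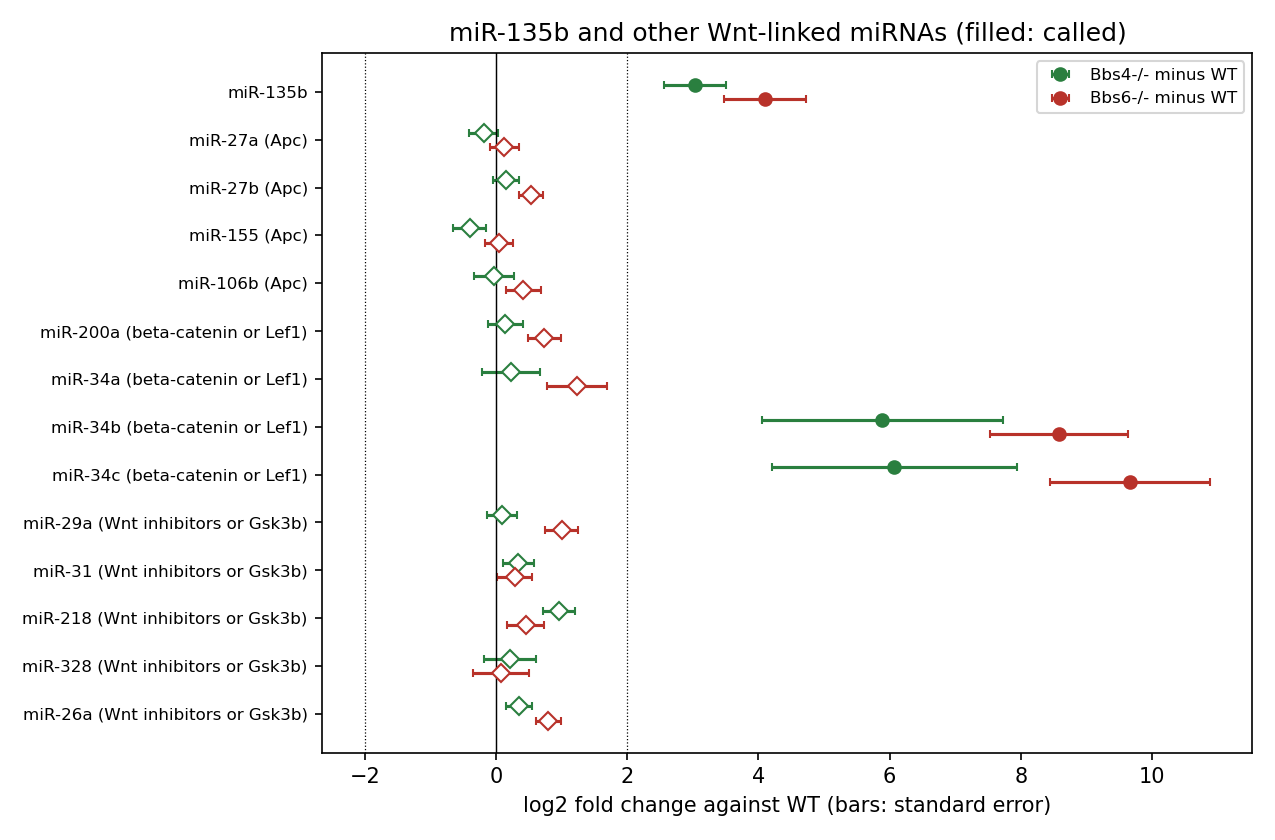
Log2 fold change against WT with its standard error for miR-135b and the 13 other Wnt-linked miRNAs tested, in Bbs4-/- (green) and Bbs6-/- (red), with the pathway component each is tied to in brackets. Filled points are called, and besides miR-135b these are miR-34b and miR-34c alone, whose fitted values depend on the prior count because WT is at 0. The 4 other listed miRNAs tied to Apc lie between -0.40 and 0.53.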

How the data were processed

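Small RNA from smEV pellets was sequenced in 9 libraries, 3 a line. The authors deposited raw counts per miRNA. As their methods state, adapters were trimmed with cutadapt 1.9, low-quality reads removed, reads identical in sequence and molecular identifier collapsed, and the rest counted with miRDeep2, with the maximal count kept for a miRNA listed more than once. The binomial intervals of the miR-135a share cover counting error only. The intervals of the fold changes come from the edgeR fit and also take in the spread between libraries. The genome build of that step is not given in the sources used here; the submitters' processing notes name GRCm38. Row names carry no strand, so the row of miR-135b is not assigned to its 5p or 3p strand. The numbers in the Bbs6-/- and WT columns are not those of the sample labels, and no column of these lines was tied to a labelled sample. All columns were used.

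Counts were tested in R 4.3.3 with edgeR 4.0.16 (TMM, quasi-likelihood, Benjamini-Hochberg adjustment over all miRNAs tested), with a minimum total of 6 counts for the 6 libraries of a comparison with WT and 9 counts for the contrast of the mutants in all 9. Standard errors are the size of the log2 fold change over the square root of F. Log2 CPM used a prior count of 2. Alternatives were DESeq2 1.42.0, its size factors, total counts, no filter, filterByExpr, other libraries in the fit, a robust fit, an adjusted p under 0.05, thinning, a replicate block and each library left out. The level and spread of miR-135b within a line with each library left out were added after seeing the data. Named are the members, the 5 miRNAs most like miR-135b, and called members of the Wnt-linked list. Some further miRNAs were named after their values were seen. Members and lists were chosen with earlier results of these data known. Sequences are RefSeq's, and all 3 genes of the family matched by symbol. Figures were drawn with matplotlib 3.10.9.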

Additional observations from a re-analysis of the deposited data

How the results depend on the processing

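Of the values against WT, miR-135b in Bbs4-/- moved by more than the SD between replicates only with the replicate number as a block, to 3.93, and it ranged from 2.77 to 3.61 with 1 library left out. In Bbs6-/- it ranged from 3.65 to 4.58 over all 15 alternatives. Between the mutants the log2 fold change was negative under all 18 alternatives. Its adjusted p stayed over 0.1 in 16 of them, and passed with no low-count filter (-1.03, adjusted p = 0.0258, edgeR) and without replicate 2 of Bbs6-/-. With 1 library left out it ran from -1.29 to -0.57. The adjusted p over all alternatives ran from 0.0237 to 0.953, the highest with the block, where the log2 fold change was -0.11. The column numbers are shared by 6 pairs of libraries of different lines, whose deviations from the line means correlated by -0.13 to 0.37, with 3 of 6 over 0.1. In the 21 pairs with different numbers the correlations ran from -0.29 to 0.15, with 3 over 0.1. The reported setting does not pair the preparations, and these values do not settle whether the numbers mark pairs. The cause of the shift with the block was not tested.

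The number of Wnt-linked miRNAs called in Bbs4-/- fell from 2 to 1 with DESeq2, to 0 with filterByExpr or an adjusted p under 0.05, to a median of 0.5 with thinned counts, and to between 0 and 2 with 1 library left out. In Bbs6-/- it was 2 under all 16 alternatives. The number of all miRNAs called in Bbs6-/- rose from 12 to 20 with the block. In the contrast of the mutants it ran from 7 (without replicate 1 of Bbs4-/-) to 18 (without replicate 2 of Bbs6-/-) with 1 library left out. The share of miR-135a in the pair ran from 0.0956% to 0.266% with 1 library left out, inside its interval. Depth limits what can be said of miR-135a, and of miR-135b in replicate 1 of WT.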

Other observations

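The gene nearest to Mir135a-1 among miRNA genes is Mirlet7g, 24627 bp away at chr9:106178840-106178927 on GRCm38. It was looked at for its position after the values of miR-135a had been seen. Its product let-7g was abundant in all lines, at 19289 ± 1207 CPM in WT, 19392 ± 2944 CPM in Bbs4-/- and 29936 ± 3236 CPM in Bbs6-/- (SD, n = 3 each), while miR-135a had at most 3 counts in any library. The miRNA gene nearest to Mir135a-2 is Mir1251, 64955 bp away.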
